A study of Mus musculus with 32 samples.

Results

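Mouse embryonic fibroblasts carrying a CTCF shRNA were followed from day 0 to the first sorted population of reprogramming, the Thy1+ cells, and the sites of open chromatin that differed between the 2 peak lists were described. A site was opened when it lay only in the Thy1+ list, closed when it lay only in the day 0 list, and shared when a peak of the other list overlapped it by at least 1 bp. The step held 85711 opened, 26937 closed and 127675 shared sites, 240323 in all, of 276187 merged sites in the 15 lists of the series, and it rested on 5 of 32 samples. The whole study mapped open chromatin by ATAC-seq, in which a transposase cuts accessible DNA, in cells with CTCF or Smarca5 shRNA, with CTCF overexpression, or with controls.

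Both groups of the step consisted of OG2-MEFs, fibroblasts with a green fluorescent reporter of Pou5f1 (Oct4), that received the reprogramming factors Oct4, Klf4, Sox2 and Myc (together OSKM) and a retrovirus carrying CTCF shRNA. The protocols describe OSKM both as separate retroviruses and as a doxycycline-inducible polycistronic lentivirus, cultured with vitamin C, and the labels do not say which delivery these samples had. The day 0 group, labelled D0_shCTCF, held 2 samples, which the labels also call reprogramming cells. The Thy1+ group, labelled shCTCF_Thy1+, held 1 sample each of days 3, 6 and 9. The control step ran between the 2 day 0 samples and the 3 Thy1+ samples (days 3, 6 and 9) with control shRNA, labelled shLuci. The later populations were SSEA1-Thy1- and SSEA1+ cells, each with samples of days 6 and 9, and GFP+ cells with 2 samples of day 12. Here later names the order of the sorts and not of time, since days 6 and 9 also gave Thy1+ samples. Virus with Ctcf shRNA was concentrated and the protocols do not say this of the control virus, so viral dose and knockdown cannot be told apart wherever the 2 steps are set side by side.

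CTCF is a zinc finger protein that binds insulators and, with the cohesin ring, stops the extrusion of chromatin loops at domain borders. Reprogramming with OSKM silences the fibroblast programme, brings a mesenchymal-to-epithelial transition and, in few cells, ends in activation of the pluripotency network. Thy1 is a surface protein of fibroblasts, SSEA1 a carbohydrate antigen of early stem cells, and GFP in these cells reports activity of Pou5f1 regulatory DNA.

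Each group had 1 deposited list, so no replicate check and no test of the condition was possible, and depth was unknown. Percentages carry, in parentheses, exact Clopper-Pearson 95% intervals that reflect the counting of peaks alone. A list built from 3 samples over several days in place of 2 samples of 1 day can be longer for that reason, and its part in the opened sites was not tested. Of the day 0 positions, 82.8% recurred identically in the Thy1+ list. In a bulk population, fewer cells of a type and less accessible DNA per cell cannot be told apart. Promoters of all 10 fibroblast markers, among them Col1a1 and Pdgfra, had peaks in both lists, and those of 3 and then 4 of 6 pluripotency markers did. The shRNA acts on Ctcf RNA and leaves its DNA in place. The peaks within 50 kb of Ctcf, 17 at day 0 and 19 in Thy1+ cells, are therefore no check of the knockdown.

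The step with CTCF shRNA was mainly one of opening. The list grew from 154612 to 213386 sites, a ratio of 1.38. Opened sites made up 40.2% (39.96 to 40.38) of the Thy1+ list, and closed sites made up 17.4% (17.2 to 17.6) of the day 0 list. There were 3.18 opened sites for each closed one. With control shRNA the list grew from 153962 to 194446 sites, with 63123 opened (32.5%) and 22639 closed (14.7%), or 2.79 opened for each closed. The step with CTCF shRNA thus had the larger counts in both directions, a difference between single lists that was not tested.

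Most sites that changed with CTCF shRNA changed the same way with control shRNA. Of the opened sites, 53059 also opened in the control step, which is 61.9% of those opened with CTCF shRNA and 84.1% of those opened in the control. Of the closed sites, 15034 also closed in the control step, 55.8% and 66.4% of the respective closed sites. The remainder took 2 main forms. First, 27404 opened sites (32.0%) lay in neither the day 0 nor the Thy1+ control list. Second, 10198 closed sites (37.9%) lay in both of these control lists, so that they were gone from Thy1+ cells with CTCF shRNA while the control cells of the same sort still held them.

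The opened sites missing from the Thy1+ control were mostly present in control cells of later sorts. Of these 27404 sites, 66.8% (66.2 to 67.4) lay in the SSEA1-Thy1- control list, 71.7% (71.2 to 72.2) in the SSEA1+ control list and 28.2% (27.7 to 28.8) in the GFP+ control list. These shares were below those of all opened sites in the same lists, which were 80.1%, 80.3% and 31.7%. Counted over all 85711 opened sites, only 3692 (4.31%) were in none of the 5 control lists. Of these 3692, 41.6% were held in SSEA1-Thy1- cells with CTCF shRNA, 22.0% in SSEA1+ cells and 9.75% in GFP+ cells, and 48.1% were in no later CTCF shRNA list.

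Few of the closed sites that the Thy1+ control still held were in the later control lists, but the shares were above those of all closed sites. The SSEA1-Thy1- control list had 7.50% (6.998 to 8.03) of these 10198 sites, the SSEA1+ control list 4.36% (3.98 to 4.78) and the GFP+ control list 6.51% (6.04 to 7.01). The 15034 sites that also closed in the control step stood at 1.34%, 1.13% and 2.31% in the same lists. In the CTCF shRNA lists the shares of the 10198 sites were 8.30% in SSEA1-Thy1- cells, 28.8% in SSEA1+ cells and 11.5% in GFP+ cells. The SSEA1+ lists differ in length, 183640 sites with CTCF shRNA and 135749 with control shRNA, and the part of this in the share was not tested.

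Most sites that opened in Thy1+ cells were held in both intermediates, and fewer of them in GFP+ cells. The SSEA1-Thy1- list with CTCF shRNA held 87.5% (87.3 to 87.7) of the opened sites, the SSEA1+ list 81.9% (81.6 to 82.2) and the GFP+ list 38.8% (38.5 to 39.1). By pattern, 46.4% were in both intermediates and not in GFP+ cells, 31.9% were in all 3 later lists, and 6.17% were in none. Closed sites were seldom in the later lists: 77.0% were in none of them, and the shares held were 5.52%, 15.2% and 8.89% in the same order. Shared sites were held at 60.0%, 79.7% and 41.9%. The share of opened sites was thus above that of shared sites in both intermediates and below it in GFP+ cells, by more than the counting intervals.

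**Figure D1:**
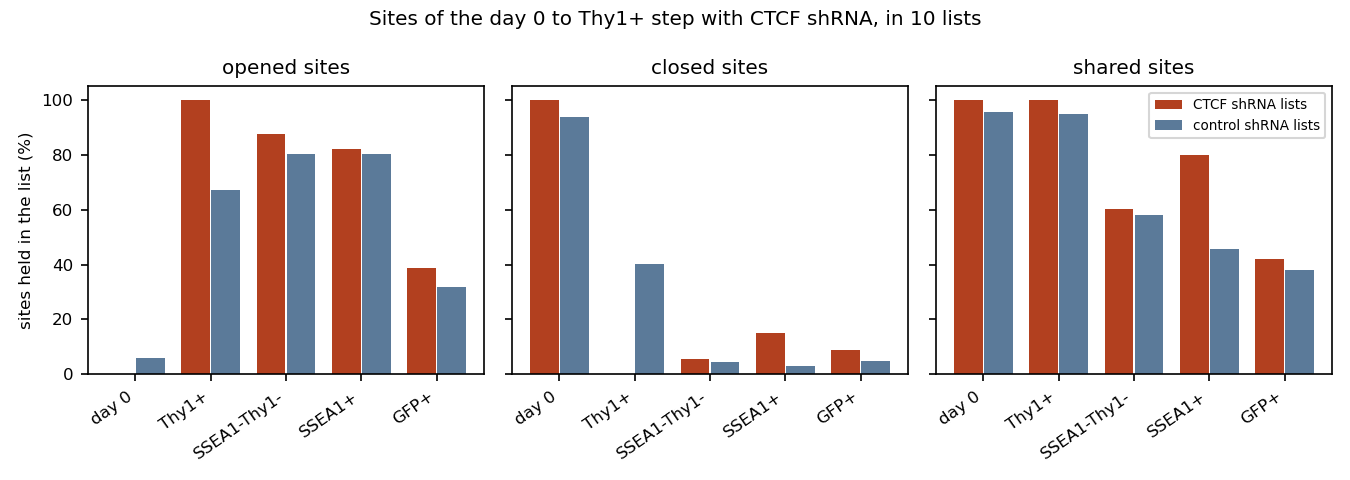
Share of the opened, closed and shared sites of the CTCF shRNA step (y axis, percent) that each of 10 lists held (x axis, population; red, CTCF shRNA; blue, control shRNA). The values of 0 and 100 in the day 0 and Thy1+ lists with CTCF shRNA are set by the definition of the classes; opened sites were at 87.5% and 81.9% in the intermediates and 38.8% in GFP+ cells, while closed sites were at or below 15.2% in the lists after Thy1+ and at 40.3% in the Thy1+ control.

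Opened and closed sites both lay mostly away from promoters. A promoter was a transcription start with 1 kb on either side, or either gene end for 4395 of 21887 protein-coding genes that lack a start in the table used. Promoters took 2.501% (2.40 to 2.61) of opened and 2.77% (2.58 to 2.98) of closed sites, against 12.8% (12.7 to 13.0) of shared sites. Gene bodies held 49.4% of opened and 42.9% of closed sites. The median distance from an opened site to the nearest day 0 site was 5.41 kb, and from a closed site to the nearest Thy1+ site 3.75 kb. Shared sites lay a median of 4.36 kb from the next day 0 site. The X chromosome stood apart in closing: 26.9% of its day 0 sites closed, above the range of 14.0% to 20.1% over the 19 autosomes. The control step showed the same order, with 23.5% on X and 11.2% to 17.3% on the autosomes. Opening on X, at 42.7%, was just above the autosomal range of 35.9% to 42.6%.

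Promoters gained peaks more often than they lost them. A promoter peak appeared at 917 genes, which is 4.19% of all 21887 protein-coding genes and 12.8% of the 7183 without one at day 0. It was lost at 180 genes, 0.822% of all genes and 1.22% of the 14704 with one at day 0. In the control step 622 promoters gained (2.84%) and 165 lost a peak (0.754%). The 476 promoters gained in both steps were 51.9% of those gained with CTCF shRNA and 76.5% of those gained in the control. Of the 917, the later CTCF shRNA lists held 792, 724 and 609 in SSEA1-Thy1-, SSEA1+ and GFP+ cells. Only 22 of the 917 had no promoter peak in any control list. Trp63, a transcription factor of stratified epithelia that was singled out after its values were seen, was the only gene of the fixed lists among them. The Trp63 peak was called at a gene end, which need not be its start.

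Genes of the pluripotency network had more peaks around them in Thy1+ cells than at day 0, with the highest list median at the 50 kb window. Peaks were counted in the gene body extended by 50 kb both ways, and the ratio is log2 of Thy1+ peaks plus 1 over day 0 peaks plus 1. The 42 pluripotency genes went from 347 to 563 distinct sites, of which 250 were opened, and 34 of the day 0 sites closed. Their median log2 ratio was 0.57, against 0.36 over all genes, and 0.39 against 0.26 in the control step. A gene was called at a 1.5-fold difference with at least 5 peaks in the longer count: 22 of the 42 were called with more peaks and 0 with fewer, where 28.4% of all genes were called with more and 0.315% with fewer. The rank among lists depended on the window. At 20 kb chromatin architecture genes stood at 0.58, above pluripotency genes and the trophoblast and endoderm list (both 0.51), and at 100 kb neural (0.52) and endothelial genes (0.51) stood above pluripotency genes (0.49). Among the 22 were Zfp42, Nr5a2, Prdm14 and Tet2, described next, and Esrrb, an orphan nuclear receptor of the naive network, with 11 and 22 peaks (10 and 18 in the control).

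Zfp42 (Rex1), a zinc finger gene used as a marker of naive pluripotency, had 2 peaks at day 0 and 11 in Thy1+ cells with CTCF shRNA, then 10, 10 and 7 in SSEA1-Thy1-, SSEA1+ and GFP+ cells. The control lists had 3, 8, 8, 9 and 10 in the same order. The count in Thy1+ cells with CTCF shRNA was thus above every other list. Nr5a2, a nuclear receptor that can replace Oct4 in reprogramming, went from 6 to 19 and then to 17, 16 and 12, against 6, 13, 14, 15 and 9 in the controls. Prdm14, a repressor that maintains the naive state, went from 7 to 19 and then to 15, 16 and 16, against 7, 13, 15, 14 and 17. For these 3 genes the Thy1+ count with CTCF shRNA exceeded the Thy1+ control, while the day 0 counts differed by at most 1 peak. The Thy1+ list with CTCF shRNA was the longer one at large, 213386 against 194446 sites. The median ratio of all genes was also higher, 0.36 against 0.26. The share of all genes with such an excess was not counted, so it is not shown to be particular to these 3. Tet2, an enzyme that oxidises methylated cytosine, went from 10 to 23, against 7 to 21 in the control, so that its difference was as large with control shRNA. Nanog had 11 and 16 peaks with CTCF shRNA and 12 and 12 in the control, and missed the 1.5-fold call.

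Promoter peaks appeared at 10 pluripotency genes, in the longest of the lists. A promoter peak was present at 24 of 42 genes at day 0 and at 34 in Thy1+ cells, with 10 gains among 18 genes without one and 0 losses. Over all genes 12.8% of those without a peak gained one, and the keratinocyte list gained 5 of 9. The control step had 3 gains and 1 loss. The 10 were Klf4, Nr0b1, Prdm14, Zfp42, Lin28a, Dppa2, Dppa5a, Lefty1, Fgf4 and Zscan10. For 4 of them, Klf4, Prdm14, Zfp42 and Fgf4, the day 0 control list already had a promoter peak, so the day 0 list with CTCF shRNA lacked a peak that the day 0 control had. Among the other 6, the promoters of Nr0b1, a nuclear receptor partner of the Oct4 network, and Lefty1, an inhibitor of Nodal, were also gained in the control Thy1+ list. Lin28a, which blocks let-7 maturation, Dppa2, Dppa5a and Zscan10 had no promoter peak in either the day 0 or the Thy1+ control list. All 4 had one in GFP+ cells of both arms. All 10 promoters were open in both GFP+ lists, and 8 and 6 of them in the SSEA1-Thy1- and SSEA1+ lists with CTCF shRNA. Of the 10, Prdm14, Dppa2, Dppa5a and Lefty1 were called at a gene end, which need not be the start.

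Reads from introduced DNA can enter some of these counts. OSKM constructs carry coding sequence of Pou5f1 (Oct4), Klf4, Sox2 and Myc, and the reporter carries regulatory DNA of Pou5f1. Their part in peaks at these genes was not tested. The site that opened at Klf4 was centred 64 bp upstream of the start. At Pou5f1 the site over the start, chr17:35505901-35506300, was a closed one. It was present in both day 0 lists, absent from both Thy1+ lists and both SSEA1+ lists, and present again in both GFP+ lists. In SSEA1-Thy1- cells the control list held it and the CTCF shRNA list did not. Around Pou5f1 as a whole the peaks went from 14 to 21 with CTCF shRNA and from 14 to 17 in the control. The other gate genes differed less, with 19 and 21 peaks at Thy1 and 11 and 15 at Fut4, taken here as the gene of the SSEA1 gate.

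Epithelial genes also had more peaks in Thy1+ cells, in both steps. Over 32 genes the sites went from 416 to 624, with 13 genes (40.6%, against 28.4% of all genes) called with more peaks and 0 with fewer. In the control step 16 were called, against 18.4% of all genes. The median log2 ratio was 0.47 with CTCF shRNA, where all genes stood at 0.36, and 0.52 with control shRNA, where all genes stood at 0.26. The difference between the steps was not tested. Ehf, an epithelial Ets factor, had 6 peaks at day 0 and 20 in Thy1+ cells, then 19, 20 and 8, against 5, 15, 18, 19 and 7 in the controls. Grhl2, a pioneer factor of epithelial enhancers, went from 16 to 33, against 17 to 31. Cdh1, the epithelial cadherin, went from 17 to 28, against 15 to 27. A promoter peak was present at 23 genes at day 0 and at 28 in Thy1+ cells, with gains at Krt7, Cldn3, Cldn7, Pkp3 and Rab25. Pkp3 was called at a gene end, which need not be its start. The 3 gained in the control step included Cldn7, a claudin of tight junctions, and Rab25, a GTPase of apical recycling. Cldn3 and Pkp3 already had a promoter peak in the day 0 control. Krt7, a simple epithelial keratin, had its promoter peak in the Thy1+, SSEA1+ and GFP+ lists with CTCF shRNA and, among controls, in the GFP+ list alone.

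Fibroblast genes kept most of their peaks at this step. The 34 matrix and surface genes went from 613 to 720 sites, with a median log2 ratio of 0.20 (0.19 in the control), below that of all genes. Of their day 0 sites 13.7% (11.1 to 16.7) closed, against 15.1% near all genes, and 26.5% of their Thy1+ sites were opened ones, against 38.8%. The 23 fibroblast transcription factors had a median of 0.26, with 5 (21.7%, against 28.4% of all genes) called with more peaks. Of the matrix and surface genes 7 (20.6%) were called. Ebf1 went from 54 to 78 peaks and Tbx15 from 22 to 36, while Foxf1 went from 13 to 10 and Col5a2, a fibrillar collagen chain, from 30 to 27. Promoter peaks appeared at Tcf21, Ebf2 and Thbs2, and no promoter of either list lost one. Tcf21 and Thbs2, a matrix protein, had no peak there in the day 0 control, and Ebf2, called at a gene end, did.

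**Figure D2:**
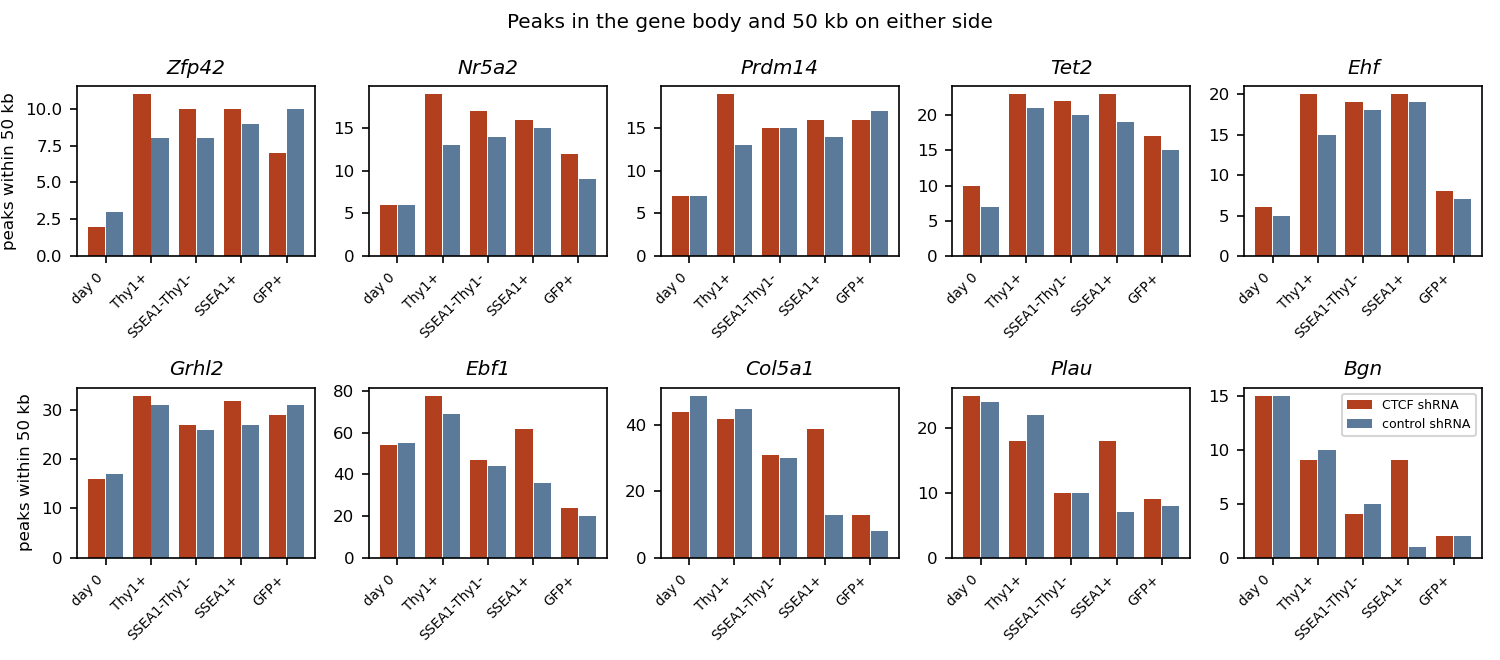
Merged peaks in the gene body extended by 50 kb both ways (y axis, count) for 10 genes in 5 populations (x axis; red, CTCF shRNA; blue, control shRNA; 1 list per bar). Zfp42, Nr5a2, Prdm14, Tet2, Ehf and Grhl2 had more peaks from Thy1+ cells on, and Plau (25 to 18) and Bgn (15 to 9) fewer.

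Few genes had fewer peaks, and none of the listed genes reached the 1.5-fold call in that direction, while 69 of all genes did. Of the 10 genes with the largest decrease in number, spaced by at least 500 kb, Adcy8, Lmo3, Cntnap5c, Pcp4 and Bgn reached the call, and Il1rapl1, Cald1, Itgb1, Kcnn2 and Plau did not. Adcy8, an adenylyl cyclase, went from 26 to 17 peaks (25 to 22 in the control), and Il1rapl1, a synaptic receptor, from 31 to 22 (31 to 23). Cald1, an actin-binding protein, went from 55 to 47 (57 to 52), and Lmo3 from 13 to 5 (12 to 9). Cntnap5c went from 14 to 7 (14 to 8), Kcnn2, a potassium channel, from 32 to 25 (32 to 23), and Pcp4 from 9 to 2 (9 to 4). Each of these genes had fewer peaks in the control step too, as did Itgb1, Plau and Bgn, described next. Itgb1, an integrin subunit, went from 28 to 21 (26 to 22). Plau, the urokinase protease, went from 25 to 18 (24 to 22), and stood at 10, 18 and 9 in the later CTCF shRNA lists. Bgn, which encodes the proteoglycan biglycan, went from 15 to 9 (15 to 10), then to 4, 9 and 2. At the upper end were long genes, for which a large window holds more peaks: Auts2 went from 73 to 144 peaks (73 to 112 in the control).

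Other groups were spread around the median of all genes. The 29 chromatin architecture genes had a median of 0.47 (0.36 in the control), with 11 (37.9%, against 28.4% of all genes) called with more peaks, among them Rad21, Smc1a and Stag1 of cohesin and Smarca4 and Bptf of remodelling complexes. Stag1 had 21 and 40 peaks (21 and 32 in the control), and Bptf 21 and 41 (21 and 34). The 24 imprinted genes had a median of 0.48 (0.27 in the control), with 11 (45.8%) called. Igf2, whose imprinting control region binds CTCF, had 11 and 12 peaks, and Peg3 had 12 and 23 against 10 and 21 in the control. AP-1 genes and partners had a median of 0.28 with 2 of 27 (7.41%) called, and interferon genes 0.28 with 7 of 28 (25%) called, both below the share over all genes. The 39 Hox genes had 146 and 159 sites, the lowest list median at 0.09, and 0 genes called. Neighbouring Hox genes share windows and are not independent. Housekeeping genes stood at 0.24, arrest and p53 genes at 0.35, and genes of TGF-beta and BMP signalling at 0.37. At a gene end of Actb the peak chr5:142902124-142902523 was present at day 0 and absent from Thy1+ cells, and neither control list of the step held it.

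Lists of markers of other cell types stood on both sides of all genes. Beside a median of 0.36 over all genes (0.26 in the control), the neural list stood at 0.50 (0.29), the endothelial list at 0.49 (0.32), and the trophoblast and endoderm list at 0.49 (0.38). The keratinocyte list stood at 0.40 (0.43), the haematopoietic list at 0.38 (0.34) and the muscle and cartilage list at 0.30 (0.34). In the day 0 and Thy1+ lists, promoter peaks were at 12 and 13 of 15 neural genes, 10 and 10 of 15 endothelial genes, 11 and 13 of 15 trophoblast and endoderm genes, and 12 and 12 of 17 muscle and cartilage genes. Keratinocyte genes had them at 6 and 11 of 15, and haematopoietic genes at 8 and 9 of 14. Promoter peaks appeared at 5 of the 9 keratinocyte genes without one at day 0 and at 1 of 6 such haematopoietic genes, Itgam. At Neurod1, a proneural factor, the promoter peak was absent only from the day 0 CTCF shRNA list among the 10 lists. Losses were at Neurog2, present again in SSEA1+ and GFP+ cells, and at Ibsp, a bone matrix gene that also lost it in the control step. Whether other cell types took part in the lists was not tested.

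**Figure D3:**
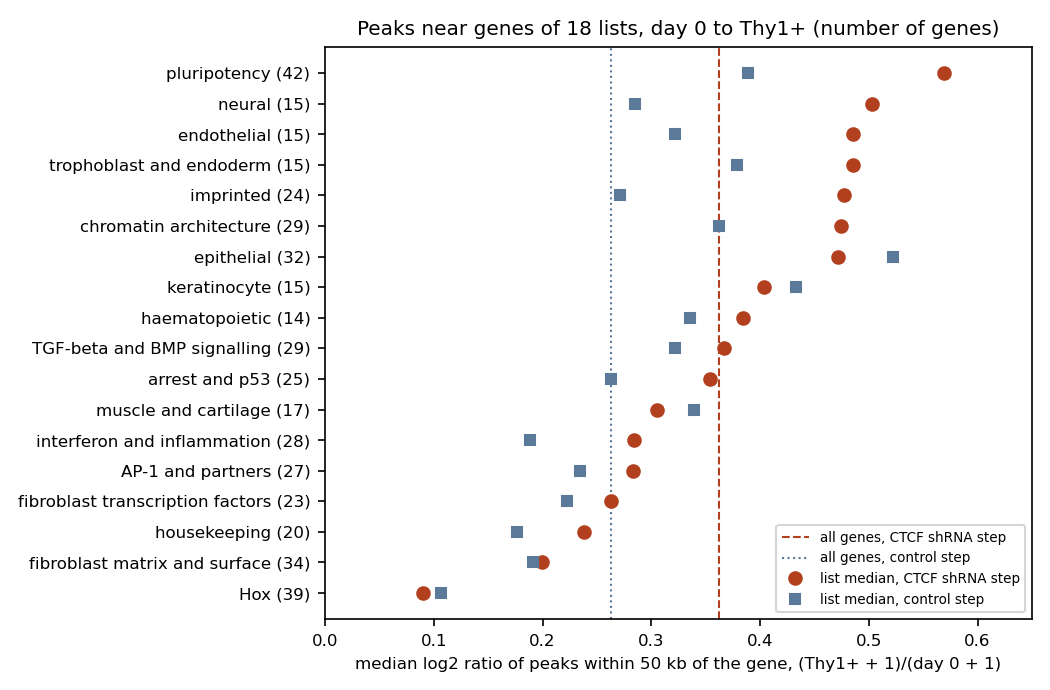
Median log2 ratio of peaks within 50 kb of the gene, Thy1+ over day 0 with 1 added to each count (x axis), for 18 gene lists (y axis, number of genes in parentheses; red circles, CTCF shRNA step; blue squares, control step). Lines mark the median of all genes, 0.36 with CTCF shRNA and 0.26 in the control; pluripotency genes were at 0.57 and Hox genes at 0.09 with CTCF shRNA.

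MicroRNA loci of the stem cell and epithelial programmes opened in this step. Sets of hairpins were drawn up after values of these lists had been seen, and a hairpin was taken with 5 kb on either side. Over all 1005 hairpins of the table, 114 had no day 0 peak and a Thy1+ peak (11.3%), and 107 did so in the control step (10.6%). An opened site lay near 362 (36%) and a closed site near 127 (12.6%). All 5 hairpins of the Mir302 cluster (Mir302a, Mir302b, Mir302c, Mir302d and Mir367) and all 5 of the miR-200 family went from no peak to a peak, in both steps. Hairpins of a cluster share their sites, so that these 10 hairpins stand for 3 loci.

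The Mir302 cluster is transcribed as 1 unit under Oct4 and Sox2 in pluripotent cells. Its opened site, chr3:127544769-127545168, was centred at -260 bp from the 5' end of the Mir302b hairpin (negative values are upstream). It was absent from both day 0 lists and was present in all 8 other lists of the day 0 and sorted populations. Mature 3p sequences from RefSeq are shown because the seed, bases 2 to 8 in capitals, defines the targets. Mir302b and Mir302d share the seed AAGUGCU.
miR-302b-3p: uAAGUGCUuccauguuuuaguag
miR-302d-3p: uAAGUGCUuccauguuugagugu
miR-302c-3p: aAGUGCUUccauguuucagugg
miR-367-3p: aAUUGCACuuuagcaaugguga

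The miR-200 family represses Zeb1 and Zeb2, the repressors of the epithelial programme. It is encoded at 2 loci. Near Mir200c and Mir141 the opened site, chr6:124719353-124719752, was centred at -1162 bp from Mir200c. It was absent from both day 0 lists and present in all 8 others. Near Mir200a, Mir200b and Mir429 there were 2 opened sites. The one at -4005 bp from Mir200b, chr4:156059556-156059955, had the same pattern over the lists, and the one at chr4:156050447-156050846 was missing from the SSEA1-Thy1- list with CTCF shRNA and from both control intermediates. The 5 mature sequences fall into 2 groups by seed.
miR-200b-3p: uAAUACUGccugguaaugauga
miR-200c-3p: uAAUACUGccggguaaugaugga
miR-429-3p: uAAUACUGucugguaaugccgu
miR-200a-3p: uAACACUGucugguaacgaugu
miR-141-3p: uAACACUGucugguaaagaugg

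Mir205, a further epithelial microRNA that targets Zeb1 and Zeb2, went from 0 to 3 sites in both steps, and all 3 were held in every later list. They were centred at -919, -2736 and -4562 bp from the hairpin, on chromosome 1. Its main mature sequence carries its own seed.
miR-205-5p: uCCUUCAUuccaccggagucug
The miR-290 cluster, the most abundant microRNA cluster of mouse embryonic stem cells, had peaks at day 0 and an opened site at -850 bp from Mir290a, chr7:3217577-3217976. That site was in the Thy1+ list with CTCF shRNA and not in the Thy1+ control. It was in all 3 later control lists and, with CTCF shRNA, in SSEA1+ and GFP+ cells and not in SSEA1-Thy1- cells. A second opened site, at -4848 bp from Mir290a, was in the Thy1+ and all later lists of both arms. Of 8 hairpins in the mesenchymal set, 3 had a closed site and 3 an opened one. Mir221 and Mir222 shared 2 closed sites, absent from all later lists of both arms, and 1 opened site at -3784 bp from Mir221. Mir21a had 1 closed site, still present in the Thy1+ control and again in SSEA1+ cells with CTCF shRNA and in GFP+ control cells, and Mir199a-2 had 1 opened site. Of 7 hairpins in the let-7 and miR-34 set, Mirlet7i had a closed site, also still present in the Thy1+ control, and Mir34a had 2 opened sites.

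**Figure D4:**
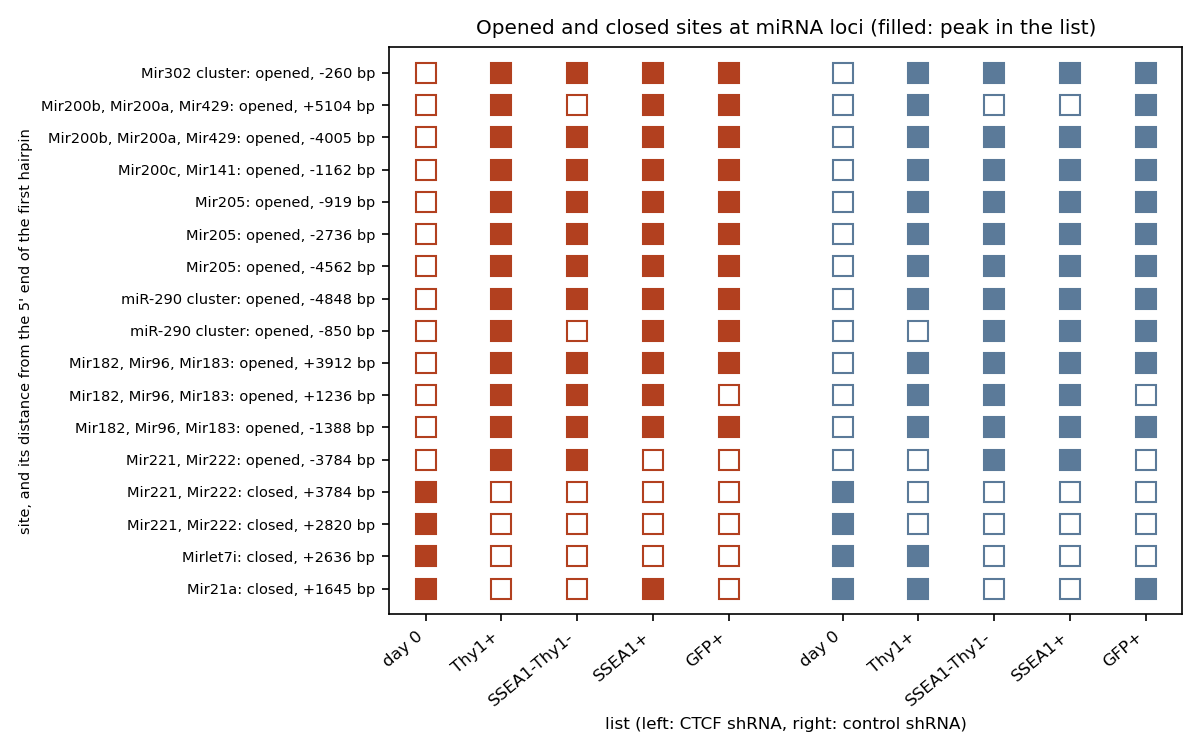
Opened and closed sites within 5 kb of 9 microRNA loci (y axis, class and distance in bp of the site's centre from the 5' end of the hairpin named first, except for the Mir302 and miR-290 clusters, where it is Mir302b and Mir290a) in the 10 day 0 and sorted lists (x axis; filled squares, peak present). Sites of the Mir302 cluster, Mir200c and Mir205 were absent from both day 0 lists and filled in the other 8.

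Promoter sequence was compared between classes, since the class was set by the lists and not by sequence. Of 21263 promoter sequences of 300 bp (250 before and 50 after the start, RefSeq, GRCm38.p6), 617 overlapped an opened site, 122 a closed site and 11707 a shared site. Opened promoters had fewer CpG than closed and shared ones, with a median of 6 CpG per promoter, against 9 in closed, 22 in shared, 3 in those with no site in either list and 13 in all promoters. Of 16 motifs searched on both strands, CACCTG, the E-box bound by Zeb and Snail repressors, was in 30.5% (26.9 to 34.3) of opened promoters, 17.4% (16.7 to 18.1) of shared, 17.2% (11.0 to 25.1) of closed and 19.7% of all. TGANTCA, the site of AP-1 factors such as Fos and Jun, was in 16.4% (10.3 to 24.2) of closed promoters, 7.94% (5.93 to 10.4) of opened and 6.99% of all. ATGCAAAT, the octamer of Oct factors, was in 3.404% (2.12 to 5.16) of opened promoters and 1.66% of all. Other pluripotency motifs varied. CATTGTT, a Sox site, was in 3.57% (2.25 to 5.35) of opened and 3.25% of all, and TCAAGGTCA, the Esrrb site, in 0 of 617 opened and 0.334% of all. The joint Oct-Sox motif was in 2 of 617 opened (0.324%, 0.039 to 1.17) and 0.033% of all.

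Base composition differs between the classes and moves with such shares. Among promoters with at most 12 CpG, CACCTG was in 28.5% (24.5 to 32.8) of opened, 17.4% (15.9 to 19.1) of shared and 21.3% of all. TGANTCA was in 22.4% (13.6 to 33.4) of closed, 12.6% (11.2 to 14.0) of shared and 10.6% of all. ATGCAAAT was in 4.47% (2.79 to 6.75) of opened, 2.57% (1.96 to 3.31) of shared and 2.21% of all. For TGANTCA and ATGCAAAT the intervals overlapped those of shared promoters. GGGNGTGG, a site of Klf factors, was in 21.5% (17.9 to 25.5) of opened, 20.3% (18.7 to 22.0) of shared and 14.2% of all, with overlapping intervals for opened and shared. Without the CpG limit it was in 22.0% of opened and 23.7% of shared promoters. CCGGAAG, the site of Ets factors at housekeeping promoters, was in 3.08% of opened and 18.2% of shared promoters, and, with at most 12 CpG, in 2.13% and 7.92%. The core of the CTCF motif was in 1 of 617 opened promoters (0.162%, 0.004 to 0.900) and in 0 of 122 closed ones. It was in 97 of 11707 shared promoters (0.829%, 0.672 to 1.01) and in 0.560% of all, with overlapping intervals for opened and shared. Motifs away from promoters, where most opened sites lay, were not searched. A match is a description of the letters and not of binding.

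**Figure D5:**
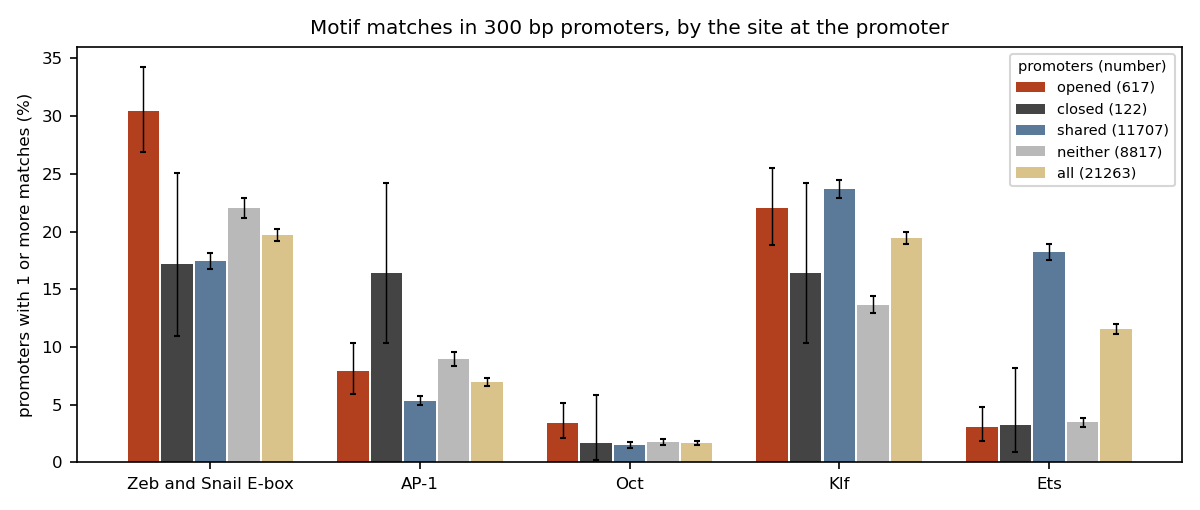
Share of 300 bp promoters with at least 1 match of 5 motifs (y axis, percent), by the class of site at the promoter (colours, number of promoters in the key); bars are shares and whiskers exact 95% intervals for counting error. The Zeb and Snail E-box stood at 30.5% in opened promoters against 19.7% in all, and AP-1 at 16.4% in closed against 6.99% in all.

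A class was set by any overlap of the promoter with a site, so a match can lie outside the site. Of the 188 opened promoters with CACCTG, 138 (73.4%) had a match inside the opened site, and of the 21 with ATGCAAAT 20 did. Of the 20 closed promoters with TGANTCA, 13 had a match inside the closed site. Promoters of 4 genes with an opened site are shown, because they hold these motifs. Matches to CACCTG, ATGCAAAT and GGGNGTGG on either strand are in capitals, and sequences run in the direction of the gene. The Zfp42 window, chr8:43306960-43307259 on the minus strand, holds 1 match of each of these 3 motifs, and the opened site chr8:43306939-43307338 covers all of it. The Fgf4 window, chr7:144861136-144861435 on the plus strand, holds 1 E-box, inside the opened site chr7:144861216-144861615. The Cldn7 window, chr11:69965171-69965470 on the plus strand, holds 2 E-boxes, of which the second lies inside the opened site chr11:69965358-69965757. The Krt7 window, chr15:101412153-101412452 on the plus strand, holds 1 E-box, inside the opened site chr15:101412267-101412666.
Zfp42: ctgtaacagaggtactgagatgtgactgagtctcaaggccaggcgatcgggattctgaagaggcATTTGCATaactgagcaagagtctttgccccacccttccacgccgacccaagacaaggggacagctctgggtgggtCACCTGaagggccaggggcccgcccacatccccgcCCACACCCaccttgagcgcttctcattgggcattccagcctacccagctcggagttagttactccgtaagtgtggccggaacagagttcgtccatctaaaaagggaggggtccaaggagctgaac
Fgf4: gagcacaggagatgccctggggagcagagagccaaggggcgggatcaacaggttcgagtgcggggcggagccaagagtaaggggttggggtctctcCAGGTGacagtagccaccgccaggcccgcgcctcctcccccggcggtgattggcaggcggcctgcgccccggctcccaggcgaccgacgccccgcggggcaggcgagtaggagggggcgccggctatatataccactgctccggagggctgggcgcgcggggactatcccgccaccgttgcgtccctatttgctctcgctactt
Cldn7: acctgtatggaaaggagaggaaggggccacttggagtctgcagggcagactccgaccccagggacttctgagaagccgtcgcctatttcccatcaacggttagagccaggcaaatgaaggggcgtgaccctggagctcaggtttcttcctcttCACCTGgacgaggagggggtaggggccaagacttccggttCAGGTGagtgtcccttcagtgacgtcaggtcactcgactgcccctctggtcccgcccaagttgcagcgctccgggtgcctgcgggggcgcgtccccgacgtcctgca
Krt7: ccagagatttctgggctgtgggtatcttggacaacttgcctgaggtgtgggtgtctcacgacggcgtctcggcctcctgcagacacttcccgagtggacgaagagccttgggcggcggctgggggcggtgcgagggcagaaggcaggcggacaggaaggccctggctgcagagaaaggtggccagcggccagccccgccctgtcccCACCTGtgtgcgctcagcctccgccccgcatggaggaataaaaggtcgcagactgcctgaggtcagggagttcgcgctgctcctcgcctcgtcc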

How the data were processed

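Peaks are 400 bp intervals in 15 deposited lists, 1 per group, on build mm10 (GRCm38). The submitters' processing notes name MACS2, Bowtie2, Trim Galore with cutadapt, Picard, SAMtools and FastQC. The sources used here give no versions, peak threshold, read shift or way of combining samples. The deposited score column is 0 in every row and was not used, so peaks could not be ranked, and depth is unknown.

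Overlapping intervals were merged within a list and compared between lists at 1 bp (Python 3.11.15, numpy 2.4.6, pandas 2.3.3, scipy 1.17.1). Gene positions and sequences came from RefSeq tables of GRCm38.p6; no genome was used, so peak sequences were not read. The scripts were tested on simulated lists. Named genes were the list genes whose promoter had a peak in exactly 1 list of the step (at most 25 per direction), the 2 with the largest and the 2 with the smallest difference per list, the 10 at each end of all genes (1 per 500 kb), the gate genes and Ctcf; other genes were named as examples after their values were seen. The members, the 19 gene lists, the motifs and the hairpin sets were chosen with earlier results of these data known. Of the 39 hairpins listed, 37 were in the table. Alternatives were autosomes only, an overlap of 200 bp, peaks supported by another list, and other windows, pseudocounts, peak minimums and match numbers.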

Additional observations from a re-analysis of the deposited data

How the results depend on the processing

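Shares and counts cannot be negative, so only the list medians could change sign, and none did. Under the alternatives run, 99 values were labelled as within their spread and 22 as beyond it. Promoter gains and losses had no interval but were labelled as within. Gains went from 917 to 976 at 2.5 kb and 825 at 500 bp, and losses from 180 to 231 and 159. An overlap of 200 bp could move shares little, since 82.8% of day 0 positions recurred identically in the Thy1+ list. No paired analysis was possible because each group has 1 list and no test was run, and no replicate could be left out. On autosomes only, the closed share was 17.1%. With peaks supported by another list it was 17.1%, and the opened share was 39.7%. That filter drops only sites found in no other list, so shares held in other lists could only rise and are no check. Under it 68.5% of opened sites were in the Thy1+ control and 57.2% of closed sites closed in the control step. The later CTCF shRNA lists then held 89.4%, 83.6% and 39.6% of opened sites. A promoter window of 2.5 kb took 5.08% of opened sites. Of the 25 named promoter gains 13 remained at 2.5 kb and 21 at 500 bp, and of 3 losses 1 and 2. Gains that did not remain at 2.5 kb included Klf4, Prdm14, Lefty1, Zscan10, Krt7, Cldn7, Pkp3, Ebf2 and Neurod1. At 500 bp they included Rab25 and Thbs2. List medians at 20 kb were 0.17 for interferon, 0.00 for Hox, 0.20 for haematopoietic, 0.26 for neural and 0.30 for all genes. Relative to all genes, the neural, haematopoietic and gate gene lists (0.15) thus went from above to below at 20 kb, and AP-1 (0.32), arrest and p53 (0.32) and muscle and cartilage genes (0.42) from below to above. TGF-beta and haematopoietic genes were below all genes at 100 kb (both 0.39) and with at least 5 peaks (0.37 and 0.38), and TGF-beta genes also with a pseudocount of 0.5 (0.373). At that window housekeeping genes stood at 0.30 and all genes at 0.40. All genes stood at 0.37 with a pseudocount of 0.5 and at 0.39 with at least 5 peaks. Promoters with at least 2 matches, fewer by construction, were 8.10% for the E-box and 0.162% for both Oct and Ets among opened promoters, and 1.64% for AP-1 among closed ones. Unknown depth, 1 list per group and the pooling of 3 samples against 2 limit every difference in list length.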
